A study of Mus musculus with 4 samples.

Results

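The genes described here write, copy and remove DNA methylation or encode the Lin28 RNA-binding proteins. They were taken by symbol: Dnmt1, Uhrf1, Dnmt3a, Dnmt3b, Dnmt3l, Tet1, Tet2, Tet3, Lin28a and Lin28b. All 10 were found among the 22036 Ensembl genes of the expression table, which also holds 2735 loci assembled from the reads. The question was how their mRNA levels differed between cultured aggregates that the study names salivary gland placodes and the gland of the embryo. RNA-seq was available for 2 samples of PSC-derived salivary gland (SG) placodes and 2 samples of submandibular glands (SMGs) from mouse embryos at E12.5. The placodes came from the mouse embryonic stem cell (mESC) line 129w2. Aggregates started with 3000 cells per well on day 0 and were kept in 2% Matrigel from day 1. BMP4 (2 ng/ml) was added on day 3 and was followed on day 4 by retinoic acid (1 μM) with bFGF (25 ng/ml). From day 6 the medium held FGF10 (200 ng/ml), and RNA was taken on day 10. The placode RNA thus comes from a single line, the labels give neither the strain of the embryos nor how the glands were dissected, and the growth protocol attached to the SMG samples is that of the mESC cultures.

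DNA methylation is the addition of a methyl group to cytosine, mostly where it is followed by guanine (CpG). Dnmt3a and Dnmt3b place it anew, Dnmt1 copies it onto the new strand at replication with the help of Uhrf1, which recognises hemimethylated DNA, and the Tet enzymes oxidise it as a step towards its removal. Lin28a and Lin28b bind precursors of the let-7 microRNAs and block their maturation. They are known from pluripotent cells and early embryonic tissues, and their levels fall as tissues mature while let-7 rises.

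Levels are given as FPKM, fragments scaled to transcript length and library size, as deposited. FPKM is per length, so levels of different genes can be set side by side. Differences are log2 fold changes of FPKM + 1, placodes minus SMGs, with the standard error and an adjusted p from limma fitted over all 13193 features with a mean of at least 1 FPKM. A feature with an adjusted p below 0.05 was counted as changed. The minimum can be reached through 1 group alone, as Lin28a, Trim71 and Esrrb did through the placodes. The calls of such genes are not independent of the filter. The 1 added to each value shrinks the difference of genes at low levels, so the ratio of mean FPKM is given for those as well. Whether the 2 samples of a group came from separate cultures or litters is not stated, so the p-values measure only the spread between these samples, which may be technical.

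Of the 10 genes, 4 were higher in placodes (Tet2, Tet3, Lin28a and Lin28b), 4 were lower (Dnmt1, Uhrf1, Dnmt3a and Dnmt3b), Tet1 did not pass the test and Dnmt3l was too low to be tested. Of all tested features, 76.2% changed, 35.7% being higher and 40.4% lower, so a changed gene is the usual case in this comparison. Changes of at least 2-fold on the scale of FPKM + 1 were seen for Lin28a, which was higher, and for Uhrf1 and Dnmt3b, which were lower. Such changes were seen for 29.4% of tested features, 14.1% higher and 15.2% lower. Lin28b fell short of 2-fold on that scale, though its ratio of mean FPKM was 2.39. The calls of Dnmt3a and Tet2 were the weakest and were lost under several alternatives, as given with their values below. For each of the 10 genes, all placode values lay on one side of all SMG values, which was also true of 88.4% of tested features.

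**Figure D1:**
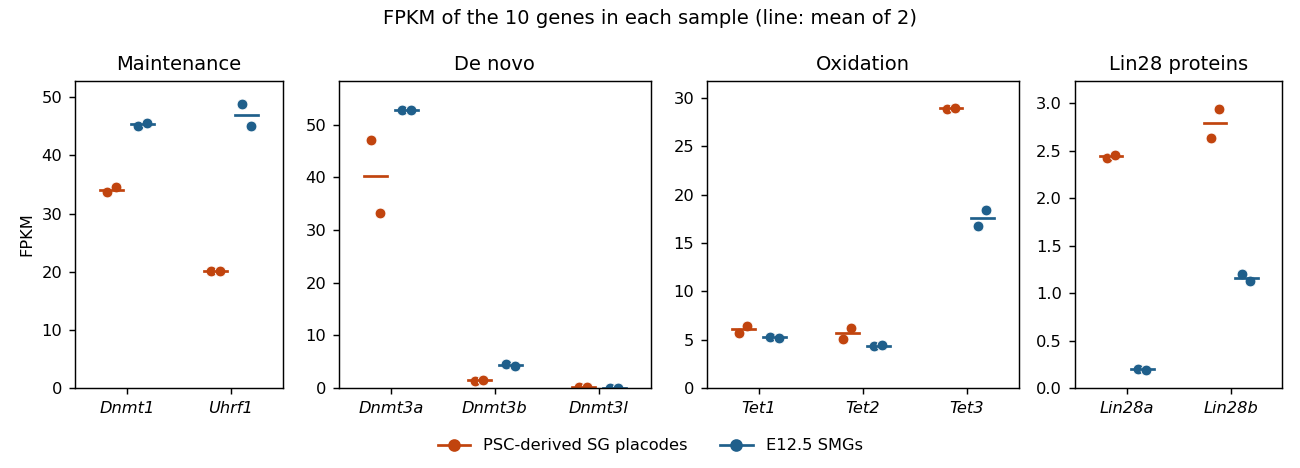
FPKM of the 10 genes in each sample, with placodes in orange, SMGs in blue and a line at the mean of 2 samples; each panel has its own scale from 0. Uhrf1 lies at 20.1 in both placodes against 44.9 and 48.8 in SMGs, Lin28a at 2.43 and 2.46 against 0.203 and 0.192, and the placodes differ most from each other for Dnmt3a.

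The order of mean levels was led by Dnmt3a in both tissues. In placodes it went on with Dnmt1, Tet3, Uhrf1, Tet1, Tet2, Lin28b, Lin28a, Dnmt3b and Dnmt3l, where Dnmt3a and Dnmt1 overlapped, as did Tet1 and Tet2. In SMGs Dnmt3a was followed by Uhrf1, Dnmt1, Tet3, Tet1, Tet2, Dnmt3b, Lin28b, Lin28a and Dnmt3l, where Uhrf1 and Dnmt1 overlapped, as did Tet2 and Dnmt3b. Mean FPKM ran from 40.1 to 0.184 in placodes and from 52.8 to 0 in SMGs. Uhrf1 thus stood below Tet3 in placodes and above it in SMGs, and Dnmt3b stood below both Lin28 genes in placodes and above both in SMGs.

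The tissues compared differed in their cells, and this holds for every value that follows. Markers of neural progenitors (8 of 8, all at least 2-fold) and neurons (6 of 6) were higher in placodes, with summed levels of 854 and 880 FPKM against 66.2 and 62.0 for the first list and 935 and 970 against 91.1 and 81.7 for the second. Markers of mesenchyme (6 of 6 tested), red blood cells (5 of 5) and endothelial cells and leukocytes (5 of 5) were lower. Their summed levels were 163 and 159 FPKM in placodes against 1333 and 1309 in SMGs for mesenchyme, 0.0258 and 0.255 against 2293 and 2179 for red blood cells, and 11.3 and 11.1 against 89.6 and 94.1 for endothelial cells and leukocytes. Of 10 markers of salivary epithelium, 6 were lower and 2 were higher, with summed levels of 115 and 123 FPKM against 631 and 598, and the basal keratins Krt5, Krt14 and Krt15 were listed at 0 in both placodes, so that defining markers of the labelled tissue were partly absent from the placodes. Sox9, a transcription factor of the early gland that the study follows, was higher in placodes at 42.1 and 43.0 FPKM against 9.31 and 7.66. In such bulk samples fewer cells that express a gene and less of its mRNA per cell cannot be told apart, and the part of the tissue makeup in the differences below was not tested.

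Both genes of maintenance methylation were lower in placodes. Uhrf1 (ENSMUSG00000001228), the protein that brings Dnmt1 to replicated DNA, lies at chr17:56303321-56323486 on the plus strand of GRCm38. Its level was 20.1 FPKM in both placodes and 48.8 and 44.9 in SMGs. Both SMGs were thus above 2 times the placode level, and the ratio of means was 2.33. The log2 fold change was -1.18 (SE 0.06, limma adjusted p = 7.83e-06).

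Dnmt1 (ENSMUSG00000004099, chr9:20907209-20959888, minus strand), the enzyme that copies methylation, was at 33.6 and 34.6 FPKM in placodes and at 45.1 and 45.5 in SMGs. The samples of each group lay close together and the groups were apart. On the log2 scale the difference was -0.40 (SE 0.05, limma adjusted p = 3.86e-04), a smaller difference than that of Uhrf1. Within a sample, Uhrf1 stood at 0.599 and 0.582 of the Dnmt1 level in placodes and at 1.08 and 0.987 in SMGs. This ratio does not depend on how a library is scaled. It was lower in both placodes than in both SMGs, and the exact two-sided permutation test gave p = 0.333, the smallest that 2 samples against 2 can give.

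Dnmt1 and Uhrf1 are used at DNA replication, and the 15 genes listed for replication and cycling were mostly lower in placodes too. Of these, 14 were lower, 7 of them at least 2-fold, and 1 was higher, with a median log2 fold change of -0.74 beside -0.05 over all tested features. Of all tested features 40.4% were lower, 15.2% by at least 2-fold. The lowest was Mcm6, a subunit of the replicative helicase, with a log2 fold change of -1.66, and the one that was higher was E2f1, a transcription factor of the G1 to S transition, with 0.38. Their summed level was 398 and 410 FPKM in placodes and 754 and 733 in SMGs. When each sample was centred on these 15 genes, Uhrf1 was still lower, at -0.29 (limma adjusted p = 0.00276), while Dnmt1 turned to higher, at 0.49 (adjusted p = 9.60e-05). Uhrf1 was thus further down than the average of these genes and Dnmt1 less far, though some of the 15, such as Mcm6, were further down than Uhrf1. That centring moves every gene upwards: the median of all tested features went from -0.05 to 0.84, and 85.5% of the changed features were higher in place of 46.9%.

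**Figure D2:**
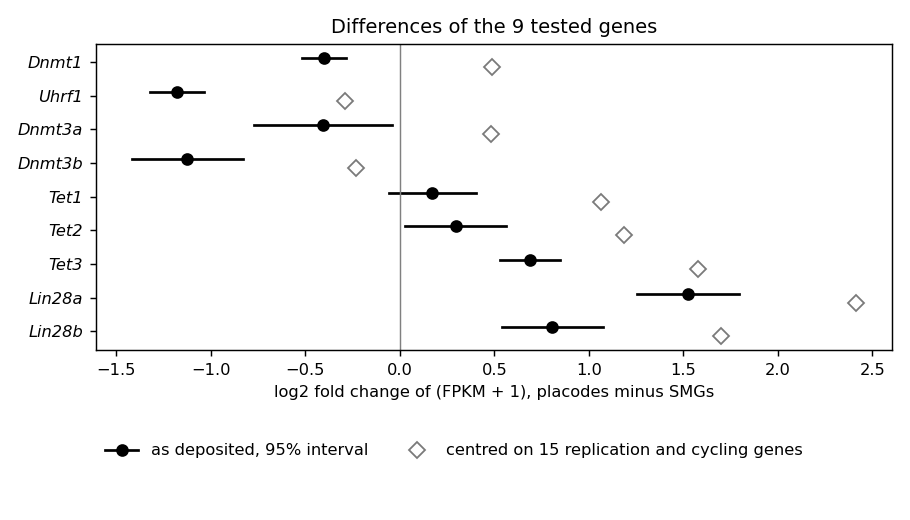
Log2 fold change of FPKM + 1 (horizontal axis, placodes minus SMGs) of the 9 tested genes, with filled points and 95% intervals from limma for the values as deposited and open diamonds for values centred on 15 replication and cycling genes. Dnmt1 and Dnmt3a lie below 0 as deposited and above 0 after centring, Uhrf1 and Dnmt3b stay below 0, and the Tet and Lin28 genes stay above 0.

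At 1 annotated start each, the promoters of both maintenance genes held words of the kind bound by E2F factors, which drive genes of the S phase. A set of 4 words was searched on both strands, TTTCCCGC, TTTGGCGC, TTTCGCGC and TTTGCCGC, in the RefSeq windows (GRCm38.p6) that run from 250 bases before to 50 bases after each gene start. Of the 10 genes, 2 held such a word, Dnmt1 and Uhrf1. The same was true of 5 of the 13 replication and cycling genes that have a window, of 4.78% of 9928 tested genes and of 2.61% of all 27025 genes. These shares were not matched for CpG content, and each of the 4 words holds a CpG. The windows with a match held 33 CpG each, where the median of all windows was 7. Windows with more CpG, those of Tet2 (57) and of the first 2 starts of Dnmt3a (46 and 47), held no word. The matches are shown because Dnmt1 and Uhrf1 act at replication, and a part of E2F factors in their levels was not tested. Dnmt3a and Dnmt3b, which were also lower in placodes, held none. The word is in capitals, in the direction of transcription, and where it lies on the other strand its reverse complement is printed. The first begins 219 bases before the third annotated start of Dnmt1, at chr9:20952824-20952853 (minus strand), the second begins at base 34 after that start, at chr9:20952574-20952601, and the last begins 185 bases before the second annotated start of Uhrf1, at chr17:56304117-56304146 (plus strand). A match says only that the letters are there.
Dnmt1, before the start: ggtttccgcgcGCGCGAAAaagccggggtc
Dnmt1, after the start: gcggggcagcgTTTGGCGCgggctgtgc
Uhrf1: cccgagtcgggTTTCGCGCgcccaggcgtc

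The de novo enzymes were Dnmt3a in the main, in both tissues. Dnmt3b (ENSMUSG00000027478, chr2:153649450-153687730, plus strand), the de novo enzyme of the early embryo and of pericentromeric repeats, was at 1.29 and 1.63 FPKM in placodes and at 4.61 and 4.12 in SMGs. Both placodes were low and the ratio of means was 2.98. Its log2 fold change was -1.12 (SE 0.12, limma adjusted p = 2.25e-04). Centred on the replication genes it was -0.23 and no longer passed (adjusted p = 0.0912). Dnmt3c, a rodent copy of Dnmt3b that lies next to it on chromosome 2, was at 0.180 FPKM or less in every sample, and reads that fit both copies could have been split between them.

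Dnmt3a (ENSMUSG00000020661, chr12:3806007-3914443, plus strand), the main de novo enzyme of somatic tissues, had the highest mean level of the 10 genes in both tissues. Dnmt3a was at 47.1 and 33.2 FPKM in placodes and at 52.8 in both SMGs. In placode replicate 2 it was below Dnmt1, which was at 34.6 FPKM. The placodes disagreed, by more than in 98.4% of tested features, while the SMGs were nearly equal. The log2 fold change was -0.41 (SE 0.15, limma adjusted p = 0.0448, 95% interval -0.77 to -0.04), and its sign was reversed by centring on the replication genes. The call was lost in 9 of 15 alternatives and the sign turned in 1 more. Without placode replicate 2, the lower of the placodes, the difference was -0.16 (adjusted p = 0.0591), and it was -0.66 without placode replicate 1 (adjusted p = 0.00376).

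Dnmt3l (ENSMUSG00000000730, chr10:78041947-78063622, plus strand) has no enzyme activity of its own and stimulates Dnmt3a and Dnmt3b in germ cells and early embryos. It was at 0.217 and 0.152 FPKM in placodes and was listed at 0 in both SMGs. These levels are far below the 1 FPKM required for a test, and no fold is given. It also shares 67 exonic bases with Aire on the other strand.

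Set against each other within a sample, Dnmt3b stood at 0.0275 and 0.0493 of the Dnmt3a level in placodes and at 0.0873 and 0.0779 in SMGs. Of the summed FPKM of the 4 Dnmt genes, Dnmt3b made up 1.57% and 2.35% in placodes and 4.50% and 4.02% in SMGs. Both measures were lower in the 2 placodes (exact two-sided permutation p = 0.333 each, the smallest possible). The shares of Dnmt1, 40.9% and 49.7% against 44.0% and 44.4%, and of Dnmt3a, 57.3% and 47.7% against 51.5% in both SMGs, overlapped between the tissues. No difference in these shares could be seen beyond the spread between the placodes (exact permutation p = 1 for each).

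Of the genes that oxidise methylated cytosine, Tet3 and Tet2 were higher in placodes and Tet1 did not pass the test. Tet3 (ENSMUSG00000034832, chr6:83362373-83459084, minus strand), the Tet enzyme of the zygote and of neural tissue, was at 28.9 and 29.0 FPKM in placodes and at 16.8 and 18.5 in SMGs. The placodes were nearly equal and well above both SMGs. This gave a log2 fold change of 0.69 (SE 0.06, limma adjusted p = 1.25e-04), with a ratio of means of 1.64.

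Tet2 (ENSMUSG00000040943, chr3:133463679-133545139, minus strand), known above all from blood cells, was at 5.12 and 6.20 FPKM in placodes and at 4.34 and 4.47 in SMGs. The placodes were higher but differed from each other by more than the SMGs did. The log2 fold change was 0.30 (SE 0.11, limma adjusted p = 0.0464). The call was lost in 5 of 15 alternatives, 3 of which left out a replicate (placode replicate 2, SMG replicate 1 or SMG replicate 2), and the adjusted p then lay at 0.198, 0.180 and 0.146.

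Tet1 (ENSMUSG00000047146, chr10:62804570-62908996, minus strand), the Tet enzyme of pluripotent and germ cells, was at 5.68 and 6.46 FPKM in placodes and at 5.30 and 5.24 in SMGs. Its log2 fold change of 0.17 did not pass (limma adjusted p = 0.141). The 95% interval, -0.06 to 0.40, leaves room for a slightly lower level or one up to that much higher. In placodes Tet1 and Tet2 overlapped in level, while in SMGs both samples had more Tet1 than Tet2.

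Tet3 made up most of the Tet mRNA everywhere, 72.8% and 69.6% of the summed FPKM of the 3 genes in placodes and 63.5% and 65.6% in SMGs. The summed level was 39.7 and 41.7 FPKM in placodes and 26.4 and 28.2 in SMGs. Divided by the summed Dnmt level of the same sample, this gave 0.482 and 0.599 in placodes and 0.257 and 0.275 in SMGs. The ratio of oxidising to methylating enzymes, as mRNA, was about 2 times as high in the placodes, with means of 0.541 and 0.266, and did not overlap (exact two-sided permutation p = 0.333, the smallest possible).

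**Figure D3:**
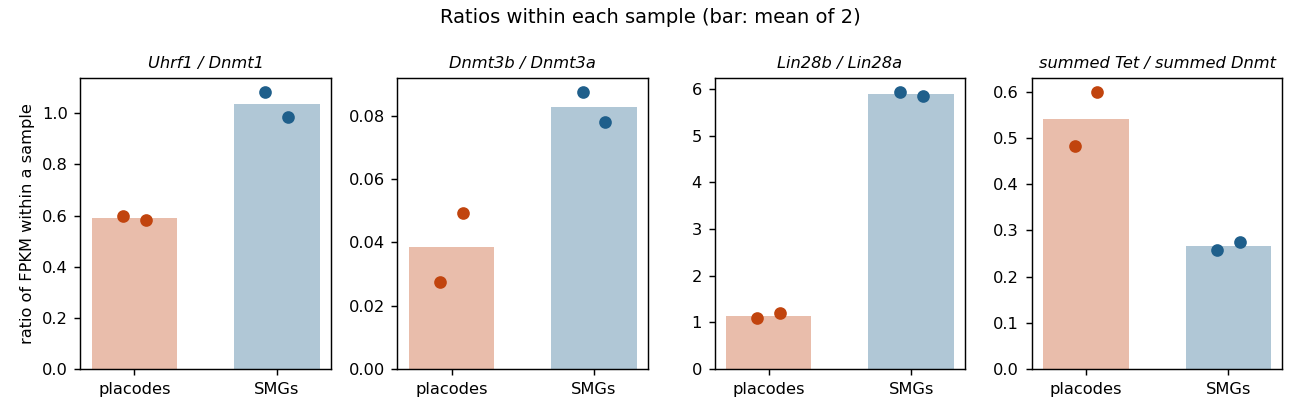
Ratios of FPKM within each sample (points) and their means (bars) in 2 placode and 2 SMG samples, for Uhrf1 to Dnmt1, Dnmt3b to Dnmt3a, Lin28b to Lin28a and the summed Tet to the summed Dnmt genes; each panel has its own scale from 0. The first 3 ratios are lower and the last is higher in both placodes than in both SMGs, and Lin28b to Lin28a falls from 5.93 and 5.85 in SMGs to 1.09 and 1.20 in placodes.

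Both Lin28 genes were higher in placodes. Lin28a (ENSMUSG00000050966, chr4:134003330-134018841, minus strand), the cytoplasmic form known from pluripotent cells, was at 2.43 and 2.46 FPKM in placodes and at 0.203 and 0.192 in SMGs. The samples of each group were nearly equal, and the ratio of mean FPKM was 12.4. The log2 fold change was 1.52 (SE 0.11, limma adjusted p = 3.80e-05), and it rose to 3.09 with a pseudocount of 0.1 in place of 1. Lin28a reached the minimum mean of 1 FPKM through the placodes alone, so its call adds no support beyond the values themselves. Lin28a shares 234 exonic bases with the opposite-strand gene Gm13061, as Dnmt3a does 133 with Dnmt3aos and Tet2 does 43 with Gm42567, and whether the libraries kept the strand is not stated.

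Lin28b (ENSMUSG00000063804, chr10:45376620-45486395, minus strand), the paralog that acts partly in the nucleus, was at 2.63 and 2.94 FPKM in placodes and at 1.21 and 1.12 in SMGs. Both placodes were above both SMGs with a ratio of means of 2.39. For Lin28b the log2 fold change was 0.81 (SE 0.11, limma adjusted p = 6.99e-04). The paralogs thus stood near each other in placodes, with a Lin28b to Lin28a ratio of 1.09 and 1.20. SMGs had mostly Lin28b, with a ratio of 5.93 and 5.85 (exact two-sided permutation p = 0.333, the smallest possible). The SMG ratios divide by Lin28a at 0.203 and 0.192 FPKM, and the counting error of such low levels cannot be given.

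Genes with a pattern close to these were sought by the Euclidean distance of log2(FPKM + 1) over the 4 samples. Nearest to Lin28a were Amer3, Me3 and Kcnn2, at distances of 0.0471, 0.0608 and 0.166. Nearest to Lin28b were Gucy1a2, Matk and Actr3b, at 0.106, 0.156 and 0.163, and nearest to Dnmt3b were Psen2, Sfxn2 and Rassf10, at 0.117, 0.1503 and 0.153. With 4 samples in 2 groups, such a list names genes at like levels in each tissue.

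Lin28a is also a marker of pluripotent cells, and other such markers were looked at beside it. Of the 12 listed, 10 were under 1 FPKM on average, and the summed level of the 12 was 24.7 and 23.4 FPKM in placodes and 10.6 and 12.1 in SMGs. Pou5f1 (Oct4), the defining factor of these cells, was at 0.403 and 0.340 FPKM in placodes and listed at 0 in both SMGs, Dppa5a was at 0.985 and 0.581 against 0 in both, and Tdgf1 was at 0.0702 and 0 against 0 in both. Nanog was at 0.149 and 0.234 FPKM in placodes and at 0.0793 and 0.251 in SMGs. The defining markers were thus low, though Pou5f1 was above 0 in both placodes and in neither SMG. Pou5f1 shares 317 exonic bases with the opposite-strand gene Gm19553. Of the 2 markers that were tested, Esrrb, an orphan nuclear receptor, was higher in placodes at 19.95 and 19.56 FPKM against 0.0630 and 0.0628, and Klf4, which epithelia also express, was lower at 1.21 and 0.966 against 9.35 and 10.6. These 2 genes made up most of the summed levels, Esrrb in placodes and Klf4 in SMGs, so the sums do not describe the list as a whole. Fgf4 was listed at 0 in both placodes and at 0.155 and 0.0124 FPKM in SMGs. Of 6 germ cell markers, with summed levels of 6.47 and 4.98 FPKM in placodes and 6.88 and 6.19 in SMGs, Tfap2c was the one tested and it did not pass (log2 fold change 0.05, limma adjusted p = 0.737). The part of residual pluripotent cells in the Lin28 difference was not tested.

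The let-7 family that Lin28 blocks shares 1 seed, the bases 2 to 8 that pair with a target. The mature sequences are shown from RefSeq (GRCm38.p6), 5′ to 3′ with the seed in capitals, since both Lin28 mRNAs hold sites for this seed. Of 10 sequences named let-7, 9 had the seed GAGGUAG, and let-7j had GAGGUAU. Let-7a and let-7g stand for the 9, and let-7 itself was not measured in these libraries.
mmu-let-7a-5p: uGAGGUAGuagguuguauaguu
mmu-let-7g-5p: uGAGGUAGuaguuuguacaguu
mmu-let-7j: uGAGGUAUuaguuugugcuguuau

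The letters complementary to the seed, CTACCTC, were searched in the longest 3′ UTR of each gene in the GENCODE annotation of GRCm38. Lin28a held 2 matches, as many or more being found in 2.06% of genes with a UTR of like length, and Lin28b held 4 (0.235%). Tet3 held 1, which 28.4% of genes with like UTRs do, and the other 7 members held none. Of all 21020 genes, 9.02% held at least 1. A match is a description of these letters and not a measured site. The matches of the Lin28 genes that are followed by A, which favours pairing, are shown with the one of Tet3, as the RNA reads but with T for U and with the match in capitals. They lie at chr4:134005182-134005211 and chr4:134004544-134004573 for Lin28a, chr10:45381015-45381044 for Lin28b and chr6:83365322-83365351 for Tet3, all on the minus strand.
Lin28a, site 1: gcacagcctgttgaaCTACCTCatttttgc
Lin28a, site 2: gagatcgccacaaacCTACCTCactgtgtt
Lin28b, site 1: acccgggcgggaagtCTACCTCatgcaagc
Tet3: cactacatgtataacCTACCTCaaatctgt

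Known targets of let-7 did not move one way. Of the 10 listed, 5 were higher in placodes, 3 were lower and 2 did not pass, with a median log2 fold change of 0.17. Over all tested features, 35.7% were higher and 40.4% lower. Trim71, a ubiquitin ligase of early embryos with 4 matches to the seed, rose most, from 0.298 and 0.188 FPKM in SMGs to 1.74 and 1.95 in placodes (log2 fold change 1.19, limma adjusted p = 1.81e-04). Like Lin28a, it reached the minimum mean of 1 FPKM through the placodes alone. Arid3b, a DNA-binding protein with 1 match, was higher at 6.35 and 7.33 FPKM against 2.92 and 2.84 (1.01, adjusted p = 1.77e-04). Myc, a driver of growth whose longest UTR held no match, was lower at 7.57 and 9.47 FPKM against 22.1 and 20.3 (-1.23, adjusted p = 9.53e-05). Matches to the seed were thus found in the genes that rose most and not in the one that fell most, but also in Cdc25a, a phosphatase of the cell cycle that was lower (-0.80). Arid3b shares 360 exonic bases with a gene on the other strand and Trim71 shares 135.

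Of 9 genes that process or degrade let-7, 5 were lower and 1 was higher, with a median log2 fold change of -0.14. The share of lower genes is close to the 40.4% of all tested features that were lower, and 4 of the 9 were lower after scaling to an equal sum or by median ratios, with the replicate block, without a variance trend, with robust estimation or with any 1 replicate left out. Tut4, which adds uridines to let-7 precursors held by Lin28a, was lowest, at 22.1 and 20.7 FPKM in placodes against 49.8 and 45.4 in SMGs (-1.12, limma adjusted p = 1.67e-05). Dicer1, which cuts the precursor, was the one that rose, at 22.5 and 22.9 FPKM against 19.8 and 19.0 (0.22, adjusted p = 0.0119), a call that was lost without placode replicate 1, placode replicate 2 or SMG replicate 2. The placodes thus had more Lin28a mRNA and less Tut4 mRNA. Tut7, also on the list, was only slightly lower, at 21.3 and 20.8 FPKM against 23.5 and 23.2 (-0.14, limma adjusted p = 0.0467). It shares 1527 exonic bases with other genes and was named after its values had been seen. After centring on the replication genes, 7 of the 9 genes were higher and 1 was lower, where 10088 of all 13193 tested features were higher and 1708 lower.

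Genes listed as cofactors of the methylating enzymes were mostly lower with them. Of 11 tested, 8 were lower, 2 were higher and 1 did not pass, with a median of -0.46. The lower ones include Trdmt1 (-0.48), which methylates tRNA and was named after its values had been seen. The shares over all tested features were 40.4% lower and 35.7% higher. Hells, a chromatin remodeller needed for methylation of repeats, was lowest, at 6.26 and 6.40 FPKM in placodes against 14.3 and 15.4 in SMGs (-1.11, limma adjusted p = 2.76e-05). Usp7, which stabilises Dnmt1 and Uhrf1, was highest, at 51.3 and 54.2 FPKM against 41.8 and 38.3 (0.39, adjusted p = 0.00147). Dppa3, which keeps Uhrf1 off chromatin in oocytes and early embryos, was listed at 0 in all 4 samples. After scaling to an equal sum, by median ratios or by quantiles, 8 of the 11 were still lower and 2 higher. After centring on the replication genes 10 of the 11 were higher and 1 was lower. That centring moves most features upwards, with 10088 of all 13193 tested features higher and 1708 lower, so this count says little about the cofactors.

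Genes that supply methyl groups were mostly lower in placodes. Of 10 genes of the folate and methionine cycles, 6 were lower, 4 of them at least 2-fold, and 2 were higher, with a median of -0.60. Among all tested features 40.4% were lower, 15.2% by at least 2-fold, and 35.7% were higher. With 10 genes, such a count is a description of this list only. Ahcy, which clears the product that inhibits methyltransferases, was lowest, at 14.4 and 13.8 FPKM in placodes against 68.6 and 61.8 in SMGs (-2.13, limma adjusted p = 1.20e-06). Shmt2, a mitochondrial enzyme that feeds one-carbon units, was highest, at 47.7 and 44.7 FPKM against 33.7 and 31.6 (0.49, adjusted p = 4.01e-04). Ahcy stayed below 0 after centring on the replication genes, where 4 of the 10 were lower and 5 were higher. With that centring 10088 of all 13193 tested features were higher and 1708 lower.

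Genes that act after the Tet enzymes or supply their co-substrate rose more often than they fell. Of 12 genes of base excision repair, the Gadd45 family and the supply of 2-oxoglutarate, the co-substrate of Tet enzymes, 7 were higher, 5 of them at least 2-fold, and 4 were lower, with a median of 0.56. Among all tested features 35.7% were higher, 14.1% by at least 2-fold, and 40.4% were lower. Smug1, a glycosylase that removes uracil and 5-hydroxymethyluracil from DNA, was highest, at 84.9 and 85.4 FPKM in placodes against 5.86 and 6.52 in SMGs (3.58, limma adjusted p = 2.22e-07). Idh2, the mitochondrial isocitrate dehydrogenase, was lowest, at 83.0 and 83.9 FPKM against 197 and 180 (-1.16, adjusted p = 7.52e-06), while the cytosolic Idh1 was higher, at 174 and 185 against 78.5 and 73.3 (1.23). Tdg, the glycosylase that excises the oxidised bases made by Tet enzymes, rose as well, from 10.6 and 10.9 FPKM in SMGs to 21.5 and 21.3 in placodes (0.93, adjusted p = 2.32e-05). Tdg shares 367 exonic bases with Glt8d2 on the other strand. The other base excision genes listed went both ways. Polb (1.04) and Parp1 (0.19) were higher, Xrcc1 (-1.02) and Apex1 (-0.32) were lower, and Lig3 did not pass. Apex1 shares 877 exonic bases with a gene on the other strand and Lig3 shares 1826. These genes, Tdg, Idh1 and Cdc25a were named after their values had been seen.

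**Figure D4:**
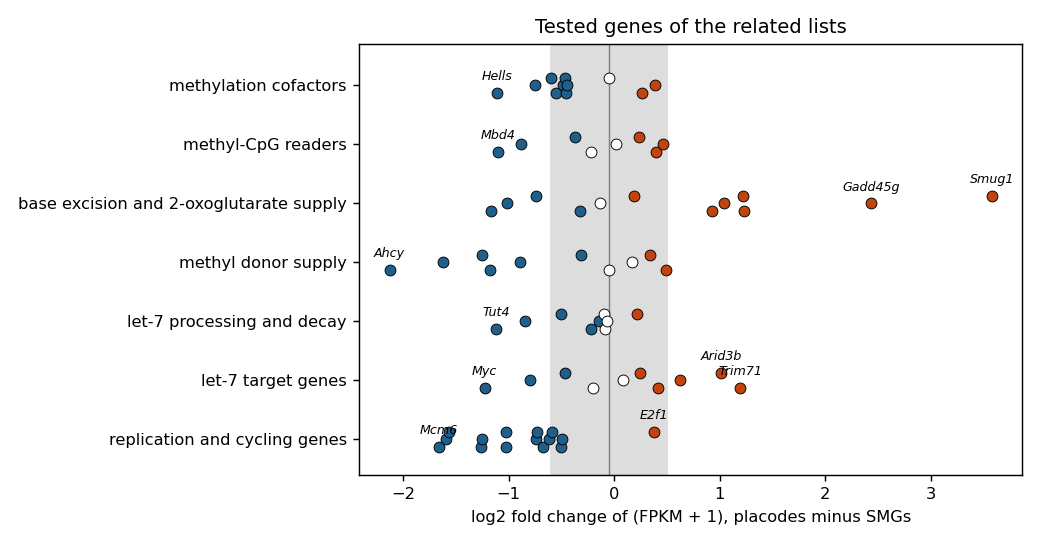
Log2 fold change of FPKM + 1 (horizontal axis, placodes minus SMGs) of each tested gene of 7 related lists, filled orange where higher, blue where lower and white where the test was not passed; the line and the grey band mark the median (-0.05) and the quartiles (-0.60 and 0.50) of all 13193 tested features. Smug1 lies farthest to the right at 3.58, Ahcy farthest to the left at -2.13, and 14 of 15 replication and cycling genes lie below 0.

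Proteins that read methylated CpG were split, with 3 of 8 higher, 3 lower and a median of -0.10. This is near the shares over all tested features, 35.7% higher and 40.4% lower. Mbd4, a reader that is also a glycosylase, was lowest, at 2.02 and 2.91 FPKM against 6.80 and 5.92 (-1.10, limma adjusted p = 6.89e-04), and it shares 264 exonic bases with another gene.

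Genes known to be kept silent by promoter methylation in somatic cells were low in both tissues. Of 14 listed, 13 were under 1 FPKM on average and were not tested. Rhox5, an X-linked homeobox gene and the one tested, was higher in placodes, at 6.35 and 6.15 FPKM against 1.23 and 1.04 (1.77, limma adjusted p = 1.58e-05). Asz1 was listed at 0 in both placodes and at 0.188 and 0.162 FPKM in SMGs, and Tex101 and Mov10l1 were at 0 in both placodes and in 1 of the 2 SMGs. Sycp1, which was named after its values had been seen, was at 1.18 and 1.15 FPKM in placodes and at 0.724 and 0.0313 in SMGs. No other gene of the list reached 1 FPKM in any sample, and methylation itself was not measured.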

How the data were processed

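RNA-seq was analysed in PSC-derived SG placodes (2 samples) and in SMGs of E12.5 embryos (2 samples), grouped by the sample titles. The authors mapped paired-end reads with HISAT2 and deposited FPKM values for each gene and sample. The submitters' processing notes name both GRCm38 and GRCh38 without a role, and the gene identifiers are those of mouse. The program and annotation behind the FPKM values, the strandedness and the version of HISAT2 are not given in the sources used here. Of 22036 Ensembl identifiers, 22022 were found in GENCODE M21 (GRCm38), from which coordinates, shared exons and 3′ UTRs were taken. Promoter windows and microRNAs came from RefSeq.

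Depth is unknown. Summed FPKM ran from 361963 to 384773 per sample. Low values of single-transcript genes lay within 0.15 of a whole multiple of the best step in 43.0% to 45.3% of cases, where 30% would do so without steps, so no reads were recovered and no counting intervals or detection limits are given.

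Features with a mean of at least 1 FPKM were tested on log2(FPKM + 1) with limma 3.58.1 in R 4.3.3 (lmFit and eBayes with trend, group as the only term, two-sided, Benjamini-Hochberg over 13193 features), and changed means an adjusted p below 0.05. In simulated data with 200 of 13193 genes changed and normal errors, 141 were recovered and 6 unchanged genes were called. Far more features changed in the real data, so this simulation does not vouch for the calls given here. Ratios within a sample were compared by the exact two-sided permutation test. Same-numbered samples did not deviate together (r = -0.03 across genes, which are not independent replicates), so the number was not used as a block. Apart from the 10 genes, the text names the highest and lowest tested gene of each pathway list, genes listed at 0 in 1 group only, and, in the let-7 and cofactor lists, those changed at least 2-fold, and 1 gene that this rule would name is not reported here. Marker lists are given by counts and sums, with single genes named for salivary epithelium, pluripotent and germ cells. The genes and lists were chosen with earlier results of these data known. Alternatives changed the pseudocount, the scaling, the minimum level, the block, the variance model and the samples. Figures were drawn with matplotlib 3.10.9.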

Additional observations from a re-analysis of the deposited data

How the results depend on the processing

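Over 132 repeats of the tests of single members, 114 kept their direction and their side of the threshold, 15 lost the call, 1 gained it and 2 turned direction. Uhrf1, Tet3, Lin28a and Lin28b kept theirs under every alternative in which they could be tested. Centring on the 15 replication and cycling genes turned Dnmt1 to 0.49 and Dnmt3a to 0.48, left Dnmt3b at -0.23 without a call, took Tet1 to 1.06 with one, and gave 7 members higher and 1 lower. With it 85.5% of changed features were higher in place of 46.9%, against 50.4% after scaling to an equal sum and 50.3% after median-ratio scaling. Dnmt3a lost its call with a pseudocount of 0.1 (-0.42), an equal sum (-0.35), median-ratio scaling (-0.35), and no minimum level, no variance trend or robust estimation (-0.41 each), and ranged from -0.66 to -0.16 with a replicate left out. Tet2 lost its call with a pseudocount of 0.1 (0.35) and no minimum (0.30), and ranged from 0.18 to 0.41 with a replicate left out. A minimum of 5 FPKM, under which 3 low members are no longer tested, left 2 members called higher. The cause of the other changes was not tested.

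Changed genes of the germline list numbered 4 without a minimum and 0 with 5 FPKM in place of 1, of the pluripotent list 7 without a minimum in place of 2, of the germ cell list 1 after centring and 2 without a minimum in place of 0, and of the endothelial and leukocyte list 3 with 5 FPKM in place of 5. The shares of Dnmt1 and Dnmt3a in the summed Dnmt level, placodes minus SMGs, ranged from -3.34 to 5.51 and from -3.82 to 5.76 percentage points with a replicate left out, the negative values being those without placode replicate 2 and placode replicate 1. The replicate number as a block changed no call of a member, with Dnmt3a at -0.41 and Tet2 at 0.30, and gave 10043 changed features in place of 10049. With 2 samples a group and depth unknown, levels near 0, such as those of Dnmt3l and of Lin28a in SMGs, carry a counting error that cannot be given.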

Other observations

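The promoter windows of the 10 genes differed in CpG content, which is the substrate of these enzymes. Over all 32851 RefSeq windows of 300 bases the median was 7 CpG, with quartiles of 3 and 20. The window of Tet2 held 57 and the first 2 starts of Dnmt3a held 46 and 47, while the 3 starts of Dnmt3l held 6, 4 and 3. Lin28a held 10 and Lin28b held 8, and Dnmt1 ranged from 2 to 33 over its 3 annotated starts. The start in use cannot be read from FPKM per gene, and methylation was not measured, so these are counts of letters only.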
